A study of Mus musculus with 44 samples.

Results

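The genes described here encode the integrins, the laminin chains and 5 further proteins of the basement membrane or its anchorage, measured in the left ventricle of mice with a cardiac PKCε transgene and of nontransgenic mice. A gene was a member if its symbol in the platform annotation began with Itga or Itgb, leaving out Itgbl1 and the Itgb1bp genes, if it began with Lama, Lamb or Lamc followed by a digit, or if it was Nid1, Nid2, Hspg2, Agrn or Dag1. This gave 38 of the 12394 genes measured: 14 integrin alpha chains, 8 integrin beta chains, 5 laminin alpha, 3 laminin beta and 2 laminin gamma chains, the 5 named genes, and Itgb3bp. Itgb3bp meets the wording of the rule but encodes a centromere protein named for its binding to an integrin, and 37 members remain without it. Membership was read from symbols and from no measured value. The probe set standing for each gene was the one with the largest SD over all 44 arrays, so measured values entered that choice.

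RNA of 44 left ventricles was hybridised to Affymetrix 430A 2.0 arrays, with 1 array per mouse. PKCε mice carried a constitutively active rabbit PKCε under the cardiomyocyte promoter of Myh6, so the transgene acts in heart muscle cells, and their controls were nontransgenic mice of the same FVB/N background (called FVB). Mice of each line received nonimmune mouse IgG (10 FVB and 10 PKCε mice) or the monoclonal antibody FG-3149, which binds CTGF, a matricellular growth factor (12 FVB and 12 PKCε mice). The dose was 30 mg/kg into the peritoneum, 2 times a week, beginning at 3 months of age and lasting 3 months. All ventricles were taken at 6 months, after echocardiography and catheterization. By the labels 7 of 10 FVB IgG mice, 6 of 12 FVB FG-3149 mice, 5 of 10 PKCε IgG mice and 6 of 12 PKCε FG-3149 mice were female. The mouse numbers in the labels run from 420 to 443, 338 to 349, 192 to 362 and 38 to 191 in these groups, in that order, and any share of litter or handling in the group differences was not tested. Each value is the log2 of a deposited ratio of a probe set to its own median over all arrays. It can be compared between mice for 1 gene, but it gives no order of abundance between genes and cannot show whether a marker is present.

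The basement membrane is a thin sheet of matrix that surrounds each cardiac muscle cell and underlies the endothelium of each capillary. Laminins, trimers of an alpha, a beta and a gamma chain, polymerise at the cell surface, nidogens (Nid1, Nid2) and the heparan sulfate proteoglycan perlecan (Hspg2) tie them to the type IV collagen network, and agrin (Agrn) binds laminin to dystroglycan (Dag1). Integrins are receptors made of an alpha and a beta chain that join this matrix, or the interstitial collagens, fibronectin and matricellular proteins around it, to talin, vinculin and the actin cytoskeleton. In heart muscle the laminin alpha 2 chain, the integrin alpha 7 and beta 1 chains and dystroglycan form the link from matrix to costamere, and loss of Lama2 causes a muscular dystrophy.

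The 4 members whose level on every PKCε IgG array exceeded that on every FVB IgG array were Itgb5, Itga9, Lama2 and Hspg2, and their promoters are shown because no mouse of one line reached the other; they were picked after their values were seen. RefSeq (GRCm38.p6) held promoters for 25 of the 38 members, each of 300 bases, from 250 before to 50 after an annotated start. The sequences below read 5′ to 3′ on the strand of the gene, with motif matches in capitals. The motifs searched on both strands were the GC box GGGCGG, which the factor SP1 binds, the muscle M-CAT element CATTCC, which TEAD factors bind, and the AP-1 site TGANTCA; the strand opposite the GC box reads CCGCCC.

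Itgb5 (chr16:33829415-33829714, + strand): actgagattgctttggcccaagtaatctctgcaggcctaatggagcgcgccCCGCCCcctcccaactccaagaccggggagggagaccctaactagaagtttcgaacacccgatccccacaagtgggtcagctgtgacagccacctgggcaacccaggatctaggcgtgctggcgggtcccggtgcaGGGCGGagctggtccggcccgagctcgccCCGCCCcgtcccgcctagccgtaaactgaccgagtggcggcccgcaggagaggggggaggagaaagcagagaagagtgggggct
Itga9 (chr9:118711442-118711741, + strand): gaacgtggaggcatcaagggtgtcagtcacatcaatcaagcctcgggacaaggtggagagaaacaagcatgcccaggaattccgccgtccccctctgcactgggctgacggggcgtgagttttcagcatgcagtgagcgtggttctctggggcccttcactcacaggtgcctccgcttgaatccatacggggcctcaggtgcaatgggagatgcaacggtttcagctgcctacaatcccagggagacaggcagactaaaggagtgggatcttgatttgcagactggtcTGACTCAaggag
Lama2 (chr10:27616893-27617192, - strand): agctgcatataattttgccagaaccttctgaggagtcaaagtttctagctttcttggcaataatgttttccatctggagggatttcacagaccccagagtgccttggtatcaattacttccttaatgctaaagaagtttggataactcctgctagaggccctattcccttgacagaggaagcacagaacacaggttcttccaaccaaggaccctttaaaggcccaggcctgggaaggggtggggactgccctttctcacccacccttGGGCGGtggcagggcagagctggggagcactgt
Hspg2 (chr4:137468553-137468852, + strand): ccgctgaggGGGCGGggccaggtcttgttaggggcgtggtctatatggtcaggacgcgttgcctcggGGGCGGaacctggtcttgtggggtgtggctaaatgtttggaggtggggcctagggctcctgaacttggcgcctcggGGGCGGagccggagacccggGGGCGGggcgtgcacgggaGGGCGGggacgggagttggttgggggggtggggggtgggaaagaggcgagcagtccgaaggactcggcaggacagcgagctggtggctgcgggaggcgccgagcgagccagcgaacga

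These promoters did not share a motif of the 3 searched. Itgb5 held 3 GC boxes, Hspg2 held 5 and Lama2 held 1, whereas Itga9 held no GC box and 1 AP-1 match just after its start. G and C made up 65.7%, 70.3%, 50.3% and 56.7% of the Itgb5, Hspg2, Lama2 and Itga9 windows, against a median of 52.7% over all promoters. A GC box was found in 35.7% of the 32851 promoters of the table and in 18 of the 30 windows of members, some of which have several starts and overlapping windows. The M-CAT letters were in 14.7% of all promoters and in 3 of 30 windows of members, and the AP-1 letters in 7.81% and in 3 of 30. A match is a run of letters and was not tested as a binding site.

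Over the whole series, array medians lay between 0.954 and 1.032 before the log, no 2 arrays held identical values, and no member value stood at the lowest deposited ratio of 0.01. The member values ran from -1.43 to 1.65. The mean level of the atrial markers Sln, Myl7 and Myl4 was above 4 on 10 arrays, 5 of them FVB IgG, 1 FVB FG-3149, 2 PKCε IgG and 2 PKCε FG-3149. The lung markers Sftpc (alveoli) and Scgb1a1 (airways) were both above 3 on 2 PKCε IgG arrays (replicates 9 and 10), and Scgb1a1 without Sftpc was high on arrays of the other groups too. FVB FG-3149 replicate 11 is labelled female but had the Y-linked Uty at a level of male arrays, and its label was kept. Values without the arrays of high atrial or lung markers stand beside the calls that they ended or moved by over 1.5 times. In each comparison of 2 groups the mouse numbers do not overlap, so group and anything shared within a range of numbers cannot be told apart. The p-values measure the spread between these mice and take no account of those ranges.

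The first comparison asks how the basement membrane and integrin genes of the PKCε ventricle differ from those of the FVB ventricle when both lines receive IgG. In PKCε IgG mice 14 of 38 members (36.8%, against 42.2% of all genes) passed an adjusted p under 0.05 (limma, Benjamini-Hochberg over all 12394 genes). Of these 11 rose and 3 fell, against 20.7% of all genes higher (28.9% of members) and 21.5% lower (7.89% of members). The rise held the integrin chains Itgb5, Itga9, Itgav, Itgb1 and Itga7, the laminin chains Lama2, Lamb1 and Lamb2, both nidogens and perlecan. The fall held Lamb3, Itgb6 and Itgb4, chains known from epithelia. The median member difference was -0.001 on the log2 scale, against -0.046 over all genes, so the members that rose were set among others near 0. A rise of at least 0.5 was called for 7 members (18.4%), against 6.97% of all genes, and a fall of that size for 2 members (5.26%), against 4.74%.

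Itgb5, which pairs with alpha v as a receptor for vitronectin, ran from -0.82 to -0.13 (median -0.47) on the 10 FVB IgG arrays and from 0.52 to 1.21 (median 0.86) on the 10 PKCε IgG arrays. On FG-3149 it ran from -0.66 to -0.28 (median -0.43) in 12 FVB mice and from 0.12 to 0.86 (median 0.56) in 12 PKCε mice. Every PKCε mouse lay above every FVB mouse in either treatment. Under IgG the rise was 1.27 ± 0.09 (SE) on the log2 scale, or 2.42-fold (limma, adjusted p = 2.11e-14), and the other 3 Itgb5 probe sets rose by 1.16, 1.17 and 1.19. All 4 probe sets of Itgb5 were thus higher in PKCε mice.

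Itga9, whose product with beta 1 binds tenascin-C, VCAM-1 and osteopontin, ran from -0.66 to -0.05 (median -0.35) in FVB IgG mice and from 0.48 to 1.44 (median 0.84) in PKCε IgG mice. With the antibody it ran from -0.85 to -0.26 (median -0.60) in FVB mice and from 0.05 to 1.11 (median 0.54) in PKCε mice. The lines did not overlap in either treatment. The rise under IgG was 1.28 ± 0.12, or 2.44-fold (limma, adjusted p = 1.5e-11). The other 2 Itga9 probe sets were split, with a rise of 0.96 and a fall of -0.25 (adjusted p over all probe sets 0.021). The mean over all 3, the one used among them, gave 0.66 ± 0.08.

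Itgav, the alpha v chain that partners Itgb5, Itgb3 and Itgb6, lay between -0.74 and 0.46 (median -0.36) in FVB IgG mice and between 0.02 and 0.92 (median 0.45) in PKCε IgG mice. All 10 PKCε mice were above the FVB median and 5 were above every FVB mouse. The rise was 0.79 ± 0.10, or 1.73-fold (limma, adjusted p = 1.09e-08). Its other probe sets gave 0.26 (not called) and a fall of -0.25 (adjusted p over all probe sets 0.0035). The mean over all 3 Itgav probe sets, the one used among them, was 0.27 ± 0.06. Of its other beta partners measured, Itgb1 rose as well, Itgb3, the vitronectin receptor chain of platelets and vessels, differed by -0.11 ± 0.07 (adjusted p = 0.212), and Itgb6 fell.

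Itgb1, the common partner of the collagen, fibronectin and laminin receptors, rose by 0.50 ± 0.08 (limma, adjusted p = 2.94e-06), with 9 of 10 PKCε IgG mice above every FVB IgG mouse. Its other 5 probe sets ran from -0.15 to 0.28, of which 2 were called higher, and the mean over all 6 was 0.14 ± 0.05. Itga7, the laminin-binding alpha chain of muscle, rose by 0.44 ± 0.11 (limma, adjusted p = 0.00108), with 9 of 10 PKCε mice above the FVB median. The other laminin-binding alpha chains were not called at the probe set used: Itga6 differed by 0.14 ± 0.10 (its second probe set rose by 0.27) and Itga3 by -0.17 ± 0.12. The fibronectin receptor chains Itga4, Itga5 and Itga8, the collagen receptor chain Itga2, the leukocyte chains Itgal, Itgam, Itgax, Itgb2 and Itgb2l, the platelet chain Itga2b, the lymphocyte chains Itgae and Itgb7, and Itgb3bp were not called either.

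**Figure D1:**
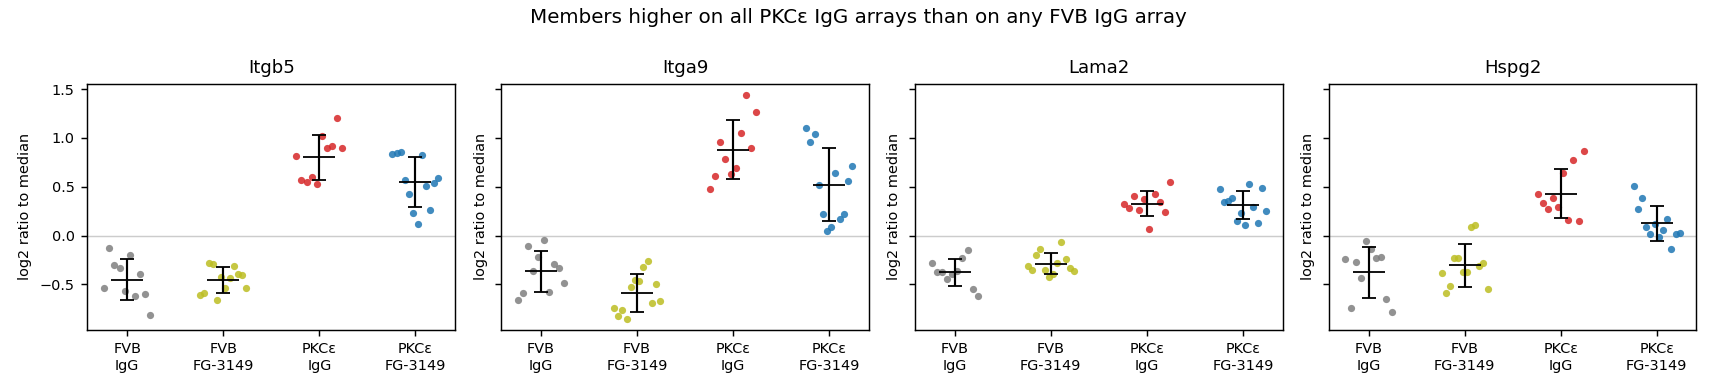
Log2 ratio to the median of all arrays (vertical axis) of Itgb5, Itga9, Lama2 and Hspg2 on each array, by group; each point is 1 mouse, and the black bars are the mean ± SD of 10 (IgG) or 12 (FG-3149) mice. On every panel the lowest PKCε IgG mouse lies above the highest FVB IgG mouse, 0.15 against -0.06 for Hspg2.

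Lama2, the laminin alpha chain of the muscle basement membrane, ran from -0.62 to -0.15 (median -0.38) in FVB IgG mice and from 0.06 to 0.55 (median 0.33) in PKCε IgG mice. Under the antibody it ran from -0.43 to -0.07 (median -0.32) in FVB mice and from 0.11 to 0.53 (median 0.32) in PKCε mice. The 22 PKCε mice all lay above the 22 FVB mice. The rise under IgG was 0.69 ± 0.06, or 1.62-fold (limma, adjusted p = 1.76e-12), from the 1 probe set of the gene. Lamb1 and Lamb2, the beta chains that join it, rose by 0.59 ± 0.09 and 0.48 ± 0.08.

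Lamb1 ran from -0.48 to 0.08 (median -0.26) in FVB IgG mice and from 0.01 to 1.05 (median 0.41) in PKCε IgG mice, and 8 of 10 PKCε mice were above every FVB mouse (limma, adjusted p = 5.79e-07). Of the other Lamb1 probe sets, one also rose by 0.59 and the other differed by 0.02. Lamc1, the gamma chain of the same trimers, differed by -0.12 ± 0.11 at the probe set used (adjusted p = 0.365) and rose by 0.38 ± 0.09 at its other probe set. Lama4, the endothelial alpha chain, differed by 0.18 ± 0.12 at the probe set used and rose by 0.44 at the other. Lama1, Lama3, Lama5 and Lamc3 were not called, although the other Lamc3 probe set rose by 0.19.

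Hspg2, which encodes perlecan, ran from -0.78 to -0.06 (median -0.25) in FVB IgG mice and from 0.15 to 0.87 (median 0.36) in PKCε IgG mice. The groups did not overlap. The rise was 0.81 ± 0.10, or 1.75-fold (limma, adjusted p = 1.68e-08), while the second Hspg2 probe set differed by -0.21 (adjusted p over all probe sets 0.051), and the mean of both rose by 0.30 ± 0.07. Groups without overlap were found for 4 members in the direction of a rise (10.5%), against 2.66% of all genes, and for 0 members in the direction of a fall, against 1.72%.

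Nid2 ran from -0.40 to 0.28 (median -0.21) in FVB IgG mice and from 0.06 to 0.72 (median 0.38) in PKCε IgG mice, and 8 of 10 PKCε mice exceeded every FVB mouse. It rose by 0.58 ± 0.11 (limma, adjusted p = 2.18e-05). Nid1 rose by 0.42 ± 0.10 (limma, adjusted p = 0.000664) and by 0.60 at its other probe set. Agrn (0.16 ± 0.08, adjusted p = 0.103) and Dag1 (-0.11 ± 0.08, adjusted p = 0.241) were not called, while 2 of the other 3 Dag1 probe sets fell.

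Lamb3, the beta chain of the laminin of skin and other epithelia, fell furthest. It ran from -0.14 to 1.65 (median 0.42) in FVB IgG mice and from -0.81 to -0.06 (median -0.43) in PKCε IgG mice, with 9 of 10 PKCε mice below every FVB mouse. The fall was -0.94 ± 0.18, or 1.92-fold (limma, adjusted p = 3.08e-05). It moved to -0.53 ± 0.14 without the 10 arrays of high atrial marker level and to -0.37 ± 0.18 (adjusted p = 0.185) in males alone. Itgb4, the partner of alpha 6 in hemidesmosomes, fell by -0.23 ± 0.06 (limma, adjusted p = 0.00328), and by -0.14 ± 0.07 (adjusted p = 0.112) without those arrays. Itgb6, an epithelial partner of alpha v, ran from -0.41 to 0.94 (median 0.20) in FVB IgG mice and from -1.43 to 0.46 (median -0.21) in PKCε IgG mice. These ranges overlapped widely, and the fall was -0.62 ± 0.14 (limma, adjusted p = 0.000458), with -0.34 at the other probe set. The lowest Itgb6 values, -1.43 and -0.97, were those of the 2 arrays of high lung markers, and without both the fall was -0.43 ± 0.13 (adjusted p = 0.00938).

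Markers of other cells moved with this comparison. Of 9 fibroblast markers 7 rose and 0 fell in PKCε IgG mice, and their mean level was -0.23 ± 0.37 (SD, n = 10, from -0.74 to 0.36) in FVB IgG and 0.44 ± 0.28 (n = 10, from 0.05 to 0.83) in PKCε IgG mice. Of 10 ventricular cardiomyocyte markers 0 rose and 5 fell, from a mean of 0.11 ± 0.12 to -0.21 ± 0.12. All 3 adipocyte markers fell, from a mean of 1.82 ± 1.70 to -0.42 ± 0.95. Of 9 endothelial markers 1 rose, of 9 leukocyte and macrophage markers 2 rose, of 5 Schwann cell markers 1 rose and 2 fell, and of 9 mural cell markers 2 rose and 3 fell. In a bulk ventricle fewer cells of a type and less RNA per cell cannot be told apart, and the part of these shifts in the member values was not tested. The difference of the Gapdh control probe sets, 3′ minus 5′, was -0.04 ± 0.08 in the FVB group and 0.30 ± 0.25 in the PKCε group of this comparison. With that difference in the fit 12 members were called, and Itga7 (0.31 ± 0.13, adjusted p = 0.063) and Nid1 (0.26 ± 0.12, adjusted p = 0.0796) were lost, whereas Itgb5 (1.22 ± 0.11) and Lama2 (0.65 ± 0.07) kept their calls.

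The rise of the integrin chains and of the muscle laminin was measured a second time in mice that all received FG-3149, with no array in common. There 20 members were called (52.6%, against 47% of all genes). Of these 13 rose and 7 fell, against 21.5% and 25.5% of all genes, and 9 rose by at least 0.5 (23.7%), against 5.82%. The 11 members that rose under IgG all rose here, and Lamc1 and Agrn were added. The Agrn call was lost in males alone and with the Gapdh difference in the fit. Over all genes, 1836 of the 2566 that rose under IgG rose here too. Of the 3 that fell under IgG, Itgb6 fell again, as did 1625 of the 2669 genes lower under IgG. The Itgb6 call was lost under 4 of 19 alternatives and without any 1 of 5 arrays. These 4 were no sex term, females alone, the Gapdh difference in the fit, and an adjusted p under 0.01. No member was called in opposite directions, against 58 of 12394 genes. Itgb5 rose by 1.01 ± 0.08 (limma, adjusted p = 1.01e-12), Lama2 by 0.60 ± 0.05 (limma, adjusted p = 7.65e-12) and Itga9 by 1.11 ± 0.11 (limma, adjusted p = 5.35e-11).

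Groups without overlap were found here for 6 members (15.8%), Itga9, Itgav, Itgb5, Lama2, Lamb2 and Nid1, against 2.69% of all genes. Nid1 rose by 0.86 ± 0.09, and its FVB FG-3149 mice had a median of -0.68. The change of its rise from that under IgG equals the difference of the antibody effect between lines, which was not called for Nid1. Lamc1 rose by 0.50 ± 0.10 (limma, adjusted p = 4.34e-05) and by 0.53 at its other probe set. Hspg2 rose by 0.43 ± 0.09, against -0.32 at its other probe set, and its 2 probe sets together gave 0.05 ± 0.07 (adjusted p = 0.512). Itgb1 rose by 0.25 ± 0.07, against 0.02 ± 0.04 (adjusted p = 0.749) for the mean of its 6 probe sets. Itga7 rose by 0.23 ± 0.10 (limma, adjusted p = 0.0485), a call lost without any 1 of 22 arrays. The falls of Itgb3, Itgb2l, Lama1, Dag1, Itga2 and Itgal were small, from -0.19 to -0.06. Those of Dag1, Itga2, Itgb2l, Itgb3 and Itgal were lost when arrays were centred on their median. The calls of Dag1, Itga2, Itgb3 and Itgal were also lost without the 10 arrays of high atrial marker level. That of Lama1 was lost in each sex alone, with the Gapdh difference in the fit and at an adjusted p under 0.01. All 9 fibroblast markers and 4 of 9 leukocyte and macrophage markers rose in this comparison, and 6 of 10 ventricular cardiomyocyte markers fell. Of 9 mural cell markers 3 rose and 4 fell, of 9 endothelial markers 2 rose and 1 fell, of 5 Schwann cell markers 1 rose and 2 fell, and 2 of 4 neutrophil markers fell; their part in the member values was not tested.

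**Figure D2:**
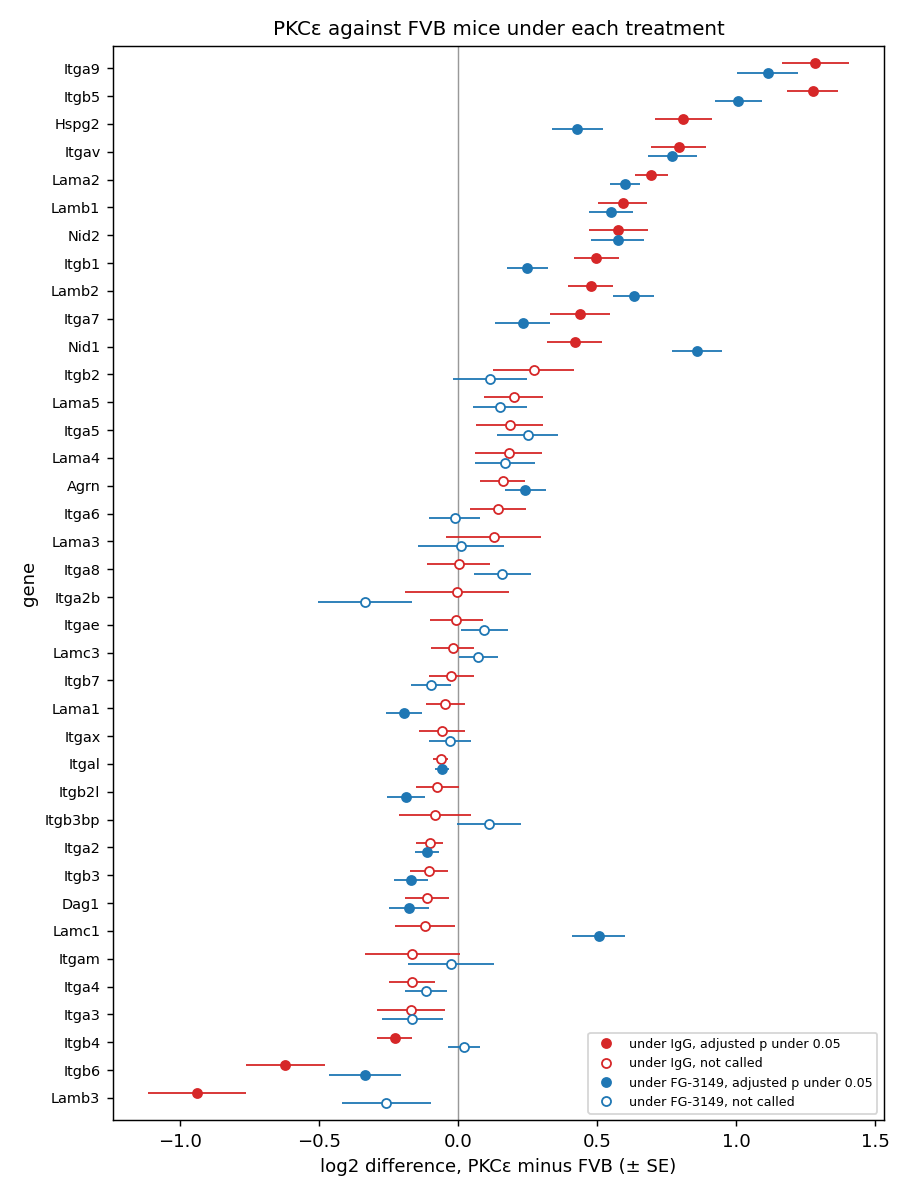
Log2 difference between PKCε and FVB mice (horizontal axis, ± SE of the limma fit) for each of the 38 members, under IgG (red) and under FG-3149 (blue); filled points have an adjusted p under 0.05. The 11 members at the top are filled in both colours, and Lamc1 moves from -0.12 under IgG to 0.50 under FG-3149.

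Probe sets of the same gene did not always move together. Of the 18 members with several probe sets, the 32 probe sets not used differed in sign from the one used in 8 cases under IgG, and 2 genes, Itga9 and Itgav, had calls in opposite directions. Under FG-3149 this held for 10 probe sets and for 3 genes, Hspg2, Itgav and Itgb1. The 20 members with 1 probe set, Lama2, Lamb2, Lamb3, Nid2, Itga7 and Itgb4 among them, have no such comparison. Where on the transcript each probe set lies was not used here.

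**Figure D3:**
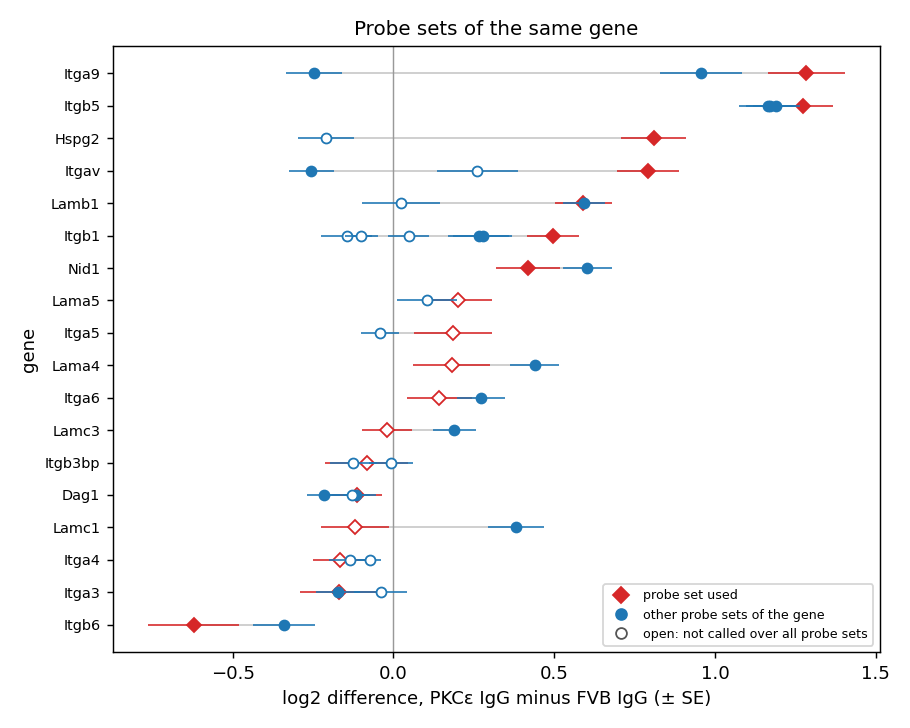
Log2 difference of PKCε IgG minus FVB IgG mice (horizontal axis, ± SE) at every probe set of the 18 members with more than 1; diamonds mark the probe set used, circles the others, and open symbols were not called over all probe sets. The 4 Itgb5 probe sets lie between 1.16 and 1.27, whereas those of Itga9 lie between -0.25 and 1.28.

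The second question is what the anti-CTGF antibody does to these genes in the PKCε ventricle. In PKCε mice 2 members were called with FG-3149 (against 8.82% of all genes). Both fell and 0 rose, against 3.74% of all genes lower (5.26% of members) and 5.08% higher, and 8 members had an unadjusted p under 0.05 (21.1%, against 22.3% of all genes). Both genes that fell, Itga9 and Hspg2, are among those that were higher in PKCε IgG mice. Of all genes called, 57.6% were higher, and 46.9% when arrays were centred on their median; both members were also called then. The median member difference was -0.012, against 0.016 over all genes. This comparison shares the PKCε IgG arrays with the first one, so the values of each are given side by side and no relation between them is drawn.

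Itga9 lay between 0.48 and 1.44 (median 0.84) in PKCε IgG mice and between 0.05 and 1.11 (median 0.54) in PKCε FG-3149 mice, and 9 of 12 treated mice were below the IgG median. Its fall was -0.36 ± 0.11 (limma, adjusted p = 0.0383), against -0.02 and -0.11 at the other probe sets. Every treated PKCε mouse still lay above the highest FVB mouse of either treatment, 0.05 against -0.05. Hspg2 lay between 0.15 and 0.87 (median 0.36) in PKCε IgG mice and between -0.13 and 0.51 (median 0.07) in PKCε FG-3149 mice, and 8 of 12 treated mice were below every IgG mouse. Its fall was -0.30 ± 0.10 (limma, adjusted p = 0.0384), against -0.03 at the other probe set. Treated PKCε replicates 1 to 3 have higher mouse numbers than the other treated PKCε mice. In these replicates Hspg2 stood at 0.51, 0.28 and 0.38, and Itga9 at 1.11, 0.96 and 1.04. The other treated PKCε mice reached at most 0.17 for Hspg2 and 0.71 for Itga9. The part of the mouse numbers in both falls was not tested.

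Both calls were close to the threshold. Neither was made in females or males alone, without the 10 arrays of high atrial markers or without the 2 arrays of high lung markers. Without the atrial arrays Itga9 differed by -0.30 ± 0.11 (adjusted p = 0.106) and Hspg2 by -0.28 ± 0.10 (adjusted p = 0.123), and without the lung arrays by -0.33 ± 0.12 (adjusted p = 0.129) and -0.29 ± 0.10 (adjusted p = 0.0948). No member was called without PKCε IgG replicate 8 or 10 or PKCε FG-3149 replicate 5, 7 or 10. With the Gapdh 3′ minus 5′ difference in the fit (0.30 ± 0.25 in PKCε IgG and 0.04 ± 0.11 in PKCε FG-3149 mice) the value for Hspg2 was -0.11 ± 0.09 (adjusted p = 0.629) and that for Itga9 -0.30 ± 0.13 (adjusted p = 0.22). Of 9 fibroblast markers 2 fell in the same comparison, of 10 cardiomyocyte markers 3 rose, and of 9 mural cell markers 3 rose and 1 fell; their part was not tested.

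The other members that stood high in PKCε IgG mice gave values on both sides of the threshold. Itgb5 differed by -0.25 ± 0.09 (limma, adjusted p = 0.0641) at the probe set used, and its other 3 probe sets, tested with all probe sets, fell by -0.26, -0.37 and -0.32 (adjusted p = 0.045, 0.00063 and 0.0025). Itgav differed by -0.27 ± 0.09 (adjusted p = 0.0635), with 0.19 and 0.11 at its other probe sets. Lama2 differed by -0.02 ± 0.06, Lamb1 by -0.01 ± 0.08, Lamb2 by 0.03 ± 0.08 and Itgb1 by 0.01 ± 0.08, none of them called. One of the other Lamb1 probe sets rose by 0.37 (adjusted p over all probe sets 0.037). Lamb3, lower in PKCε IgG mice, differed by 0.47 ± 0.17 (adjusted p = 0.0702).

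**Figure D4:**
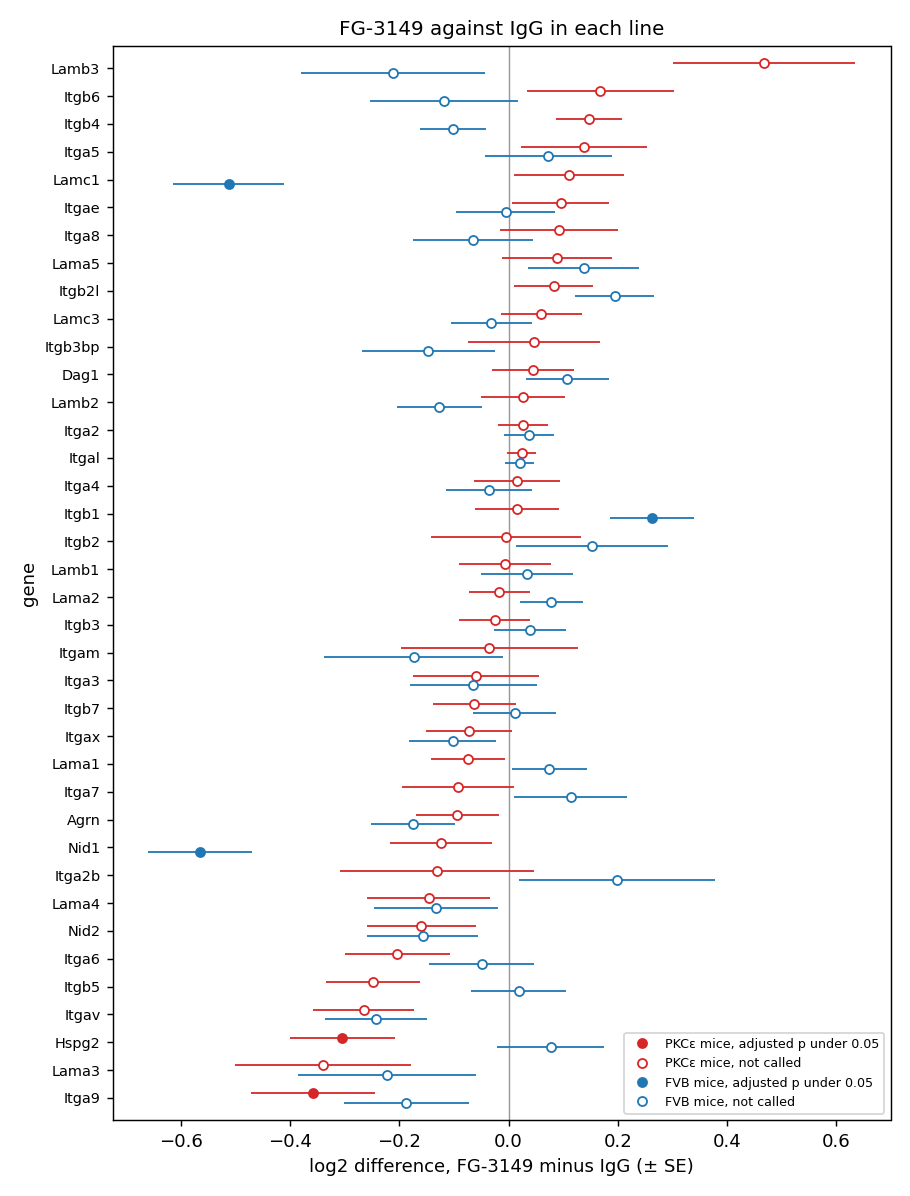
Log2 difference between FG-3149 and IgG mice (horizontal axis, ± SE of the limma fit) for each of the 38 members, in PKCε mice (red) and FVB mice (blue); filled points have an adjusted p under 0.05. Itga9 and Hspg2 are filled in PKCε mice, and Nid1 (-0.57), Lamc1 (-0.51) and Itgb1 (0.26) in FVB mice.

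In FVB mice, which carry no transgene, the antibody comparison called other members: Nid1 and Lamc1 fell and Itgb1 rose. These 3 members are 7.89%, against 9% of all genes, with 5.26% of members lower, against 4.57% of all genes, and 2.63% higher, against 4.43%, and 6 members had an unadjusted p under 0.05 (15.8%, against 22.4%). Nid1 lay between -0.55 and 0.34 (median -0.13) in FVB IgG mice and between -1.18 and -0.30 (median -0.68) in FVB FG-3149 mice. All 12 treated mice were below the IgG median and 8 were below every IgG mouse. The fall was -0.57 ± 0.10, or 1.48-fold (limma, adjusted p = 9.92e-05), and the other Nid1 probe set gave -0.14 (not called).

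Lamc1, the gamma chain of nearly all laminins of the heart, lay between -0.29 and 0.64 (median 0.12) in FVB IgG mice and between -1.02 and 0.21 (median -0.30) in FVB FG-3149 mice, with 11 of 12 treated mice below the IgG median. It fell by -0.51 ± 0.10, or 1.43-fold (limma, adjusted p = 0.000877), and gave -0.05 at its other probe set. Itgb1 lay between -0.44 and -0.06 (median -0.36) in FVB IgG mice and between -0.31 and 0.14 (median -0.02) in FVB FG-3149 mice, and all 12 treated mice were above the IgG median. Its rise was 0.26 ± 0.08 (limma, adjusted p = 0.0257), with -0.05 to 0.27 at the other probe sets. The call was lost under 8 of 19 alternatives, averaged probe sets, quantile normalization, the replicate block and each sex alone among them. It was also lost without FVB IgG replicate 2.

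Markers of other cells moved in this comparison too. All 3 atrial markers fell, with a mean level of 4.28 ± 3.89 (n = 10, from -1.16 to 8.47) in FVB IgG and -0.55 ± 2.59 (n = 12, from -2.97 to 4.40) in FVB FG-3149 mice, all 3 adipocyte markers fell (1.82 ± 1.70 and -0.37 ± 1.02), and 1 of 4 mesothelial markers fell. Of 9 fibroblast markers 2 fell (means -0.23 ± 0.37 and -0.54 ± 0.17), of 9 mural cell markers 3 rose and 2 fell, and 1 of 9 leukocyte and macrophage and 1 of 5 Schwann cell markers fell. Without the 10 arrays of high atrial level Nid1 fell by -0.52 ± 0.12 (adjusted p = 0.0161) and Lamc1 by -0.56 ± 0.13 (adjusted p = 0.0139), while Itgb1 differed by 0.26 ± 0.09 (adjusted p = 0.141). The part of the other markers was not tested.

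**Figure D5:**
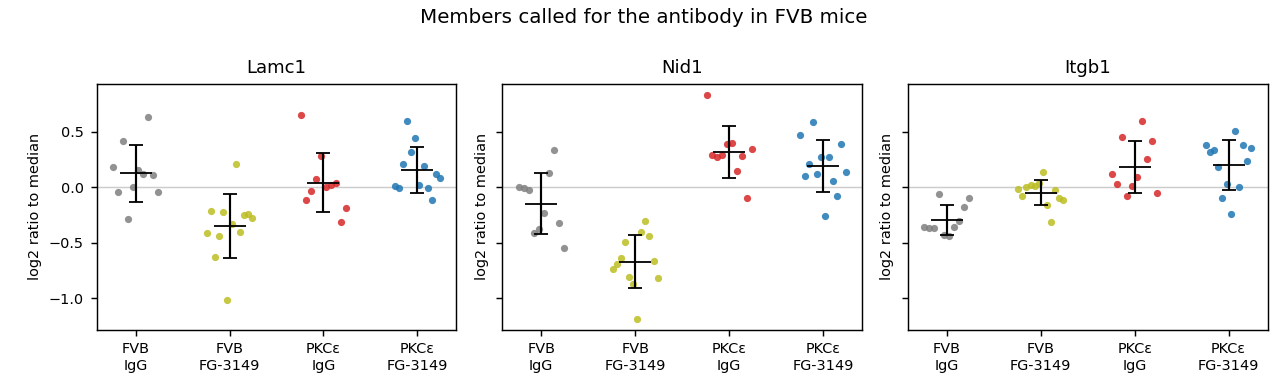
Log2 ratio to the median of all arrays (vertical axis) of Lamc1, Nid1 and Itgb1 on each array, by group; each point is 1 mouse, and the black bars are the mean ± SD of 10 (IgG) or 12 (FG-3149) mice. For Lamc1 the FVB FG-3149 group stands low at -0.35 ± 0.29, while the other 3 groups lie between 0.04 and 0.15.

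The antibody effect differed between the lines for 1 member, Lamc1 (2.63%), against 3.86% of all genes. Lamc1 lay between -0.31 and 0.65 (median 0.01) in PKCε IgG mice and between -0.12 and 0.59 (median 0.10) in PKCε FG-3149 mice. These groups overlapped, and their difference of 0.11 ± 0.10 was not called. The antibody effect in PKCε mice minus that in FVB mice was 0.62 ± 0.14 (limma, adjusted p = 0.00664), and the value at the other Lamc1 probe set, 0.15, was not called. Without the arrays of high atrial level the difference was 0.71 ± 0.17 (adjusted p = 0.0296). The antibody effect also differed between lines for 2 of 3 adipocyte markers (both higher), 1 of 10 cardiomyocyte markers (higher) and 2 of 9 mural cell markers (1 higher, 1 lower), and their part was not tested.

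For Nid1 the difference between lines was 0.44 ± 0.13 (adjusted p = 0.0505), and the gene lay between -0.10 and 0.83 (median 0.29) in PKCε IgG mice and between -0.26 and 0.59 (median 0.17) in PKCε FG-3149 mice. The corresponding values for Hspg2 (-0.38 ± 0.14), Itgb5 (-0.27 ± 0.12) and Itga9 (-0.17 ± 0.16) were not called, so a fall called in PKCε mice and not in FVB mice is not shown to differ between them.

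Over all groups 5 members differed between the sexes (13.2%, against 15.8% of all genes). Of all genes called, 54.9% were higher in females, and 68.4% when arrays were centred on their median, where 3 members were called. Itgb6 was lower in females by -0.50 ± 0.10 (limma, adjusted p = 0.000442). Its means in females and males were 0.00 ± 0.25 (n = 7) and 0.74 ± 0.19 (n = 3) in FVB IgG mice. They were -0.001 and 0.42 in FVB FG-3149, -0.69 and 0.10 in PKCε IgG, and -0.21 and -0.05 in PKCε FG-3149 mice. The PKCε IgG females include the 2 arrays of high lung markers, at -1.43 and -0.97. Itga6 was lower in females by -0.35 ± 0.07 (limma, adjusted p = 0.000489) and its female mean was below the male mean in all 4 groups: -0.15 against 0.17 in FVB IgG, -0.17 against 0.10 in FVB FG-3149, -0.04 against 0.35 in PKCε IgG and -0.25 against 0.15 in PKCε FG-3149 mice. Without FVB FG-3149 replicate 11, whose Uty level goes against its label, 6 members were called. Nid1 (-0.21 ± 0.07) and Lamb1 (-0.17 ± 0.06) were lower and Itgav (0.23 ± 0.07) was higher in females. The Lamb1 call was lost under 7 of 15 alternatives, reaching -0.07 (adjusted p = 0.400) without the arrays of high atrial marker level, and without any 1 of 15 arrays. The Nid1 call was lost under 5 of 15, those without the arrays of high atrial or of high lung markers among them, and without FVB IgG replicate 8. Of cell markers 4 of 9 fibroblast, 4 of 9 leukocyte and macrophage, 2 of 3 adipocyte, 1 of 4 lung and 1 of 4 mesothelial markers were higher in females, and 3 of 9 endothelial, 2 of 9 mural cell, 1 of 5 Schwann cell and 1 of 10 cardiomyocyte markers were lower; their part in these values was not tested.

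A difference of the PKCε effect between the sexes was called for 0 members by limma (10 genes in all, 0.0807%), with 8 members at an unadjusted p under 0.05 (21.1%, against 8.6% of all genes). The difference of the antibody effect in PKCε mice was called for 0 members (0.0161% of all genes), with 2 at an unadjusted p under 0.05 (5.26%, against 8%). Itgb5 rose in PKCε IgG females by 1.46 ± 0.12 and in males by 1.02 ± 0.11, and Lama2 by 0.76 ± 0.08 and 0.58 ± 0.08, when each sex was fitted alone. In PKCε IgG mice every male had a lower mouse number than every female, so sex and number cannot be told apart there. In FVB IgG mice every array of high atrial markers was from a female.

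The matrix partners of the members were followed in lists drawn up beside the rule. Over all genes 20.7% rose and 21.5% fell in PKCε IgG mice. With the antibody 5.08% rose and 3.74% fell in PKCε mice, and 4.43% rose and 4.57% fell in FVB mice. Genes of the lists in this and the next paragraph were not followed under the alternatives. Over all genes, antibody calls in PKCε mice went from 1093 to 440 without the arrays of high lung markers. Of 17 other basement membrane genes measured, 9 rose and 0 fell in PKCε IgG mice, with a median of 0.42, against -0.05 over all genes. They included Smoc2 (1.40 ± 0.09), a calcium-binding matricellular protein, Col15a1 (1.41 ± 0.13), and the type IV collagen chains Col4a2 (0.91 ± 0.11) and Col4a1 (0.97 ± 0.12), which form the network that nidogens tie to laminin. With the antibody 4 of these 17 fell and 0 rose in PKCε mice, Col4a1 (-0.60 ± 0.11), Col4a2 (-0.50 ± 0.10), Col18a1 (-0.45 ± 0.11) and Col4a4 (-0.33 ± 0.10), while 1, Col18a1 (-0.55 ± 0.12), fell in FVB mice. Of the 24 interstitial ligands of integrins 12 rose and 3 fell in PKCε IgG mice, led by Col1a2 (1.91 ± 0.17), Emilin1 (1.25 ± 0.12), Postn (2.29 ± 0.24) and Col3a1 (1.51 ± 0.20). With the antibody 8 of these 24 fell and 0 rose in PKCε mice, among them Mfge8 (-0.26 ± 0.05), a ligand of alpha v beta 5, Postn (-1.01 ± 0.23), Col3a1 (-0.81 ± 0.19) and Col1a2 (-0.63 ± 0.16). In FVB mice 2 rose and 2 fell.

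Inside the cell, 9 of 22 cytoplasmic integrin partners rose and 3 fell in PKCε IgG mice. The talin gene Tln1 (0.84 ± 0.13), the alpha-parvin gene Parva (0.76 ± 0.12) and the alpha-actinin gene Actn1 (0.72 ± 0.10) rose, and Itgb1bp2, the muscle-specific chaperone melusin that binds the integrin beta 1 tail, fell by -0.53 ± 0.07. With the antibody Actn1 fell in PKCε mice (-0.42 ± 0.10) and in FVB mice (-0.37 ± 0.10), where 1 other of the 22 partners rose. Of the 14 genes of the dystrophin complex and of dystroglycan glycosylation 6 rose and 4 fell in PKCε IgG mice. Sntb2 (1.27 ± 0.13), Dtna (0.77 ± 0.11) and Utrn (0.61 ± 0.14), which encode beta 2 syntrophin, alpha dystrobrevin and utrophin, rose, and sarcospan, Sspn, fell by -0.29 ± 0.05. With the antibody Sntb2 (-0.73 ± 0.12) and Utrn (-0.61 ± 0.14) fell in PKCε mice, whereas Sntb2 rose in FVB mice (0.42 ± 0.12). In FVB mice 3 of these 14 genes rose with the antibody, Sntb2 among them, and 1 fell. The difference of the antibody effects between lines was called lower for 2 of the 14, Sntb2 (-1.14 ± 0.17) and Utrn (-0.79 ± 0.19), and higher for 1. Over all genes this difference was called for 3.86%.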

How the data were processed

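Per the labels and the submitters' processing notes, the authors summarised the arrays by GCRMA and normalized every probe set to the median of its own values with GeneSpring GX 7.3.1, and they deposited linear ratios. The ratios ran from 0.01 to 1104 over 22690 probe sets. Brightness and detection calls are no longer in these values. Signal over background is therefore not known here, and precision is limited by how many arrays there are. No genome build is named.

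Log2 of each ratio was taken. The platform annotation gave 1 gene for 20393 probe sets, several for 691 and none for 1606 (64 controls among them). Each of the 12394 genes was represented by its most variable probe set (highest SD across arrays). A single model of all 44 arrays, with labelled sex as a covariate, was fitted by limma 3.58.1 (lmFit, then eBayes; R 4.3.3). Differences of an effect between the sexes came from a model with a mean for each of the 8 combinations of sex and group. Tests were two-sided, p-values were adjusted by Benjamini-Hochberg over all genes of a comparison, and an adjusted p under 0.05 is a call. A positive difference means higher in the group named first, errors of differences are SE of the fit, and those of group means are SD. The method was tested on simulated data. Probe sets not used were tested in a fit over all probe sets.

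The members and the lists of related and marker genes were chosen with earlier results of these data known. All members are named. Full values are given for Itgb5, Itga9 and Lama2, for members called with at least 0.5 under IgG, and for members called for the antibody or for a difference between lines or sexes. Up to 4 called genes of each related list are named, by lowest p. As alternatives the sex term was dropped, the replicate number was a block, and further fits used median centring, quantile normalization, a filter on low SD, a pseudocount or floor of 0.1, averaged or all probe sets, robust eBayes, array weights, only the groups compared, each sex alone, leaving out the arrays of high atrial or lung markers, the atrial level or the Gapdh difference as a covariate, a threshold of 0.01, and leaving out each array. Promoter sequences are those of RefSeq, on GRCm38.p6, and not of FVB/N.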

Additional observations from a re-analysis of the deposited data

Results flagged for a closer look

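In independent normal values a highest or lowest mouse lies far from the nearest other in about 1 in 20 sets. The members share arrays and their probe sets were picked by SD, so that rate is no test here. Among 76 sets of member values within an IgG group of 10 mice, 10 had such a mouse. In the FVB IgG group these were Itga3 in replicate 1 at 0.77 (next 0.28), Itga8 in replicate 8 at 0.61 (next 0.21), Itgam in replicate 8 at 1.12 (next 0.45), Itgb3 in replicate 3 at -0.42 (next 0.00) and Lama1 in replicate 10 at 0.64 (next 0.14). In the PKCε IgG group they were Itga3 in replicate 5 at 0.69 (next 0.13), Itga8 in replicate 9 at 1.21 (next 0.04), Itgb3 in replicate 10 at 0.27 (next 0.02), Lama4 in replicate 9 at -0.38 (next -0.05) and Lama5 in replicate 4 at 0.52 (next 0.14). Replicates 9 and 10 of the PKCε IgG group are the arrays on which both Sftpc and Scgb1a1 were high. Replicate 5 of that group and replicates 1 and 3 of the FVB IgG group are among the arrays of high atrial markers. None of these genes was called for PKCε under IgG or for the antibody in either line.

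The antibody effect on Lamc1 differed between the lines, by 0.62 on the log2 scale (limma, adjusted p = 0.00664), with a fall of -0.51 in FVB mice and a difference of 0.11 in PKCε mice. The other Lamc1 probe set gave 0.15 for the same difference and was not called.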

How the results depend on the processing

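The 45 calls of named members were recomputed 831 times in all under alternatives other than leaving out an array; 725 kept the call, 106 lost it and 0 reversed. The 14 members called for PKCε under IgG stayed between 10 (males alone) and 19 (mean over probe sets), and between 14 and 17 when each array was left out. The 2 members called for the antibody in PKCε mice became 1 without a sex term and 5 with array weights. With averaged probe sets neither of the 2 kept its call, and 1 other member was called lower. The count was 0 with the replicate block, in females alone, in males alone, and without the arrays of high atrial or of high lung markers. It was also 0 with the Gapdh difference as a covariate or at 0.01. Leaving out single arrays gave 0 to 4, the highest without FVB IgG replicate 2 or PKCε IgG replicate 4. The 3 for the antibody in FVB mice became 0 in males alone, 2 with the replicate block and 2 to 5 when single arrays were left out (5 without FVB IgG replicate 10). The 20 for PKCε under FG-3149 became 12 in males alone, 13 with the Gapdh difference and 12 at 0.01, and 16 to 21 without single arrays. The 1 for the difference between lines became 2 with the filter on SD or with all probe sets tested, 3 with the Gapdh difference, 0 in females alone and 0 in males alone, and 1 to 3 without single arrays (3 without FVB IgG replicate 10). The 5 for sex became 3 with median centring, 3 without the arrays of high lung markers and 2 at 0.01, and 4 to 6 without single arrays. The difference of the PKCε effect between sexes went from 0 to 2 members without the arrays of high atrial markers, and from 10 to 343 genes. All FVB IgG arrays left out there were from females, so fewer FVB IgG females remained. Replicate numbers did not pair the arrays (over 62 same-numbered pairs the median correlation of deviations from the group means was -0.051, and 13 were above 0.1), and the replicate block left 14, 18, 1 and 4 members for PKCε under IgG, PKCε under FG-3149, the difference between lines and sex. Over all genes, the counts ran from 2169 to 5839 (5235 in the fit described) for PKCε under IgG, 57 to 1332 (1093) for the antibody in PKCε mice, 57 to 1215 (1116) for the antibody in FVB mice, 2829 to 6816 (5830) for PKCε under FG-3149, 37 to 725 (479) for the difference between lines and 875 to 2270 (1956) for sex. Median centring moved the share of calls that were higher from 57.6% to 46.9% for the antibody in PKCε mice from 54.9% to 68.4% for sex, from 49% to 57.3% for PKCε under IgG and from 45.7% to 54% for PKCε under FG-3149. The males alone have fewer arrays; the cause of the other changes was not tested.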
